A study of Mus musculus with 22 samples.

Results

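The collagen gene family comprised 44 mouse genes, chosen because their symbol has the form Col, a number, the letter a and a number in both count tables. They stood among 37991 genes in the table of the Tet1 cross and 37620 genes in that of the MF1 cross. Of these 44 genes 39 held enough counts to be tested among 17567 genes in the 20 libraries of the Tet1 cross, and 33 were tested among 15500 genes in the comparison with the MF1 cross. Col10a1, Col11a2, Col15a1, Col20a1 and Col28a1, the 5 genes not tested in the Tet1 cross, reached at most 44 counts in any library.

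The study sequenced RNA of sorted mouse primordial germ cells (PGCs), which later form the gametes, from Tet1-KO and wild-type embryos; Tet1 converts methylcytosine to its oxidised forms. The groups were Tet1-KO and Tet1-WT at E10.5, where the sexes were not separated, and Tet1-KO and Tet1-WT females and males at E12.5 and at E14.5. All 10 of these groups came from Tet1-het parents that both carried GOF18ΔPE-EGFP, an Oct4 reporter transgene that marks germ cells; the Tet1-WT and Tet1-KO embryos share it, and the labels describe neither the Tet1 allele nor the sorting gate. Each of the 2 libraries per group pooled RNA of 2 to 6 embryos, or 1000 to 8000 cells. A further wild-type group at E10.5, called MF1, came from MF1 females mated with GOF18ΔPE-EGFP males; its 2 libraries held 600 to 1000 cells each and their RNA was extracted with another kit. Every mean ± SD below is over n = 2 libraries. In the Tet1 cross p-values rest on a spread per gene, between pools of embryos, that its 10 groups share. MF1 was fitted apart, and its labels do not say how many embryos a library held.

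Collagens are triple-helical proteins of the extracellular matrix. Fibrillar collagens are made mainly by mesenchymal cells and give tissue its tensile strength, collagen IV forms the network of basement membranes under epithelia and around vessels, and multiplexins, FACIT collagens and beaded-filament collagen VI link these structures. Germ cells of the fetal gonad lie among mesenchyme, supporting cells and vessels that make much of this matrix; collagen RNA in sorted germ cells is therefore set beside markers of those cells here. In bulk libraries such as these, fewer cells of a type and less RNA per cell cannot be told apart.

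The start regions of 3 members on which the results turn are printed here, because 2 of them (Col1a2 and Col3a1, fibrillar collagens) were among the most abundant members in Tet1-WT at E10.5 and E12.5 and the third, the multiplexin Col18a1, was the most abundant at E14.5. RefSeq annotation of GRCm38.p6 placed the 250 bases before the start of Col1a2 (ENSMUSG00000029661) at chr6:4505368-4505617 on the plus strand and those of Col3a1 (ENSMUSG00000026043) at chr1:45311288-45311537 on the plus strand. Col18a1 (ENSMUSG00000001435) had 2 annotated starts, whose windows lie on the minus strand at chr10:77166531-77166780 (outer start) and chr10:77113706-77113955 (inner start). Sequences run 5′ to 3′ on the gene's strand, and capitals mark 3 common promoter words found by a search of both strands, none of which overlaps another in these windows. The word for the TATA box was TATAAA. The word for the box bound by nuclear factor Y was CCAAT, which reads ATTGG when it lies on the other strand. The word for the GC box was GGGCGG, which likewise reads as its complement when reversed.
Col1a2: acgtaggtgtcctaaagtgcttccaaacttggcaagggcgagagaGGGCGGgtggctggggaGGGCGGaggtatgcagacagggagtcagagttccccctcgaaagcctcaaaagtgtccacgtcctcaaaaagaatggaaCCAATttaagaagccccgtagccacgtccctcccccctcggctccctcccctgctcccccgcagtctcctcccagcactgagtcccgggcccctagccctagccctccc
Col3a1: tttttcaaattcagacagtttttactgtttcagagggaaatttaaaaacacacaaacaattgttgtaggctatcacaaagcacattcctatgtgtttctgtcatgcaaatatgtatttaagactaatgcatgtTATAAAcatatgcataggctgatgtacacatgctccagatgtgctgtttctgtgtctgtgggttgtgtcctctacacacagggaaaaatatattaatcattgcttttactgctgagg
Col18a1, outer start: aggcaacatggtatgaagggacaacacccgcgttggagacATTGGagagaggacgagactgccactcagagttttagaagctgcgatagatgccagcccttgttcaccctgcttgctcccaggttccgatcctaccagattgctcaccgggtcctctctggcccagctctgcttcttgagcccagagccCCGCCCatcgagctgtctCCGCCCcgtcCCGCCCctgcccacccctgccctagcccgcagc
Col18a1, inner start: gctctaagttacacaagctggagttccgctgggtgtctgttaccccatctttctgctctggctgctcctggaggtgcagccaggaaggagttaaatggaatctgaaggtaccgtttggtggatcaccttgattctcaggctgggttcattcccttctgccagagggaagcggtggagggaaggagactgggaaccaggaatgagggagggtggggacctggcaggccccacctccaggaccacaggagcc
The window of Col1a2 held CCAAT once and the GC box at 2 places, and that of Col3a1 held the TATA box once. The outer Col18a1 window held the reverse of CCAAT once and the reverse of the GC box at 3 places, and the inner one held none of the 3 motifs. Counts per gene add up the RNA from both Col18a1 starts, so the data do not show which was used. Windows were available for 35 of the 44 members (38 windows), of which 5 (13.2%) held the TATA box word, 13 (34.2%) the CCAAT word and 22 (57.9%) the GC box word, beside 12.4%, 33.8% and 32.7% of all 32851 windows. A match of these short words is a description of the sequence and not a site. The annotated starts of Col4a1 and Col4a2, which encode the chains of the common collagen IV trimer, lie 21 bases apart on opposite strands.

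Total counts ran from 9.62 to 25.9 M in the Tet1 cross and were 59.4 and 66.9 M in the MF1 libraries. M stands for 1000000 counts. Levels are given as CPM, counts per 1000000 counts of a library, with totals scaled by edgeR's TMM factors. In the Tet1 cross 3 counts corresponded to between 0.12 and 0.318 CPM, a limit that covers counting error only. Tet1 itself stood at 44.5 and 102 CPM in both libraries labelled Tet1-KO at E10.5, against 134 and 76.8 CPM in E10.5 Tet1-WT, so 1 library labelled Tet1-KO lay above a Tet1-WT library, and that stage is described as labelled. In the other 4 pairs of groups every Tet1-KO library lay below every Tet1-WT library (20.97 to 99.5 against 35.2 to 309 CPM over all of them, with no overlap within a stage and sex). The 14 germ cell genes examined, among them Dppa3, Dnd1 and Pou5f1, summed to between 4500 and 12800 CPM in all libraries except E10.5 Tet1-WT, where they summed to 2100.0 and 1750.0 CPM. In the Tet1-KO groups at E12.5 and E14.5 the deposited table gives both libraries the same number, so they are called the first-listed and second-listed library.

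Summed over the 44 genes, collagen RNA was abundant in Tet1-WT germ cell fractions at E10.5 and E12.5 and low at E14.5, and in each of the 3 pairs of groups before E14.5 it was lower in Tet1-KO. At E10.5 the sum was 313 and 592 CPM in both libraries labelled Tet1-KO, 111 and 174 CPM in MF1, and 964 and 988 CPM in Tet1-WT. At E12.5 it was 109 and 88.95 CPM in female Tet1-KO against 569 and 617 CPM in female Tet1-WT, and 254 and 175.5 CPM in male Tet1-KO against 1199 and 742 CPM in male Tet1-WT. The groups did not overlap in any of these pairs. At E14.5 all 8 libraries lay between 58.7 and 105 CPM, with 105 and 85.2 CPM in female Tet1-KO against 83.4 and 78.3 CPM in female Tet1-WT, and 65.9 and 58.7 CPM in male Tet1-KO against 76.8 and 82.7 CPM in male Tet1-WT. As a log2 ratio of mean sums, Tet1-KO to Tet1-WT, this was -1.11 at E10.5 (pooled SD between libraries 0.46), -2.58 (0.16) and -2.18 (0.44) for females and males of E12.5, and 0.24 (0.16) and -0.36 (0.1) for those of E14.5. No test was made of these sums, since the members share each library. Leaving out the second library labelled Tet1-KO moved the E10.5 ratio to -1.64.

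**Figure D1:**
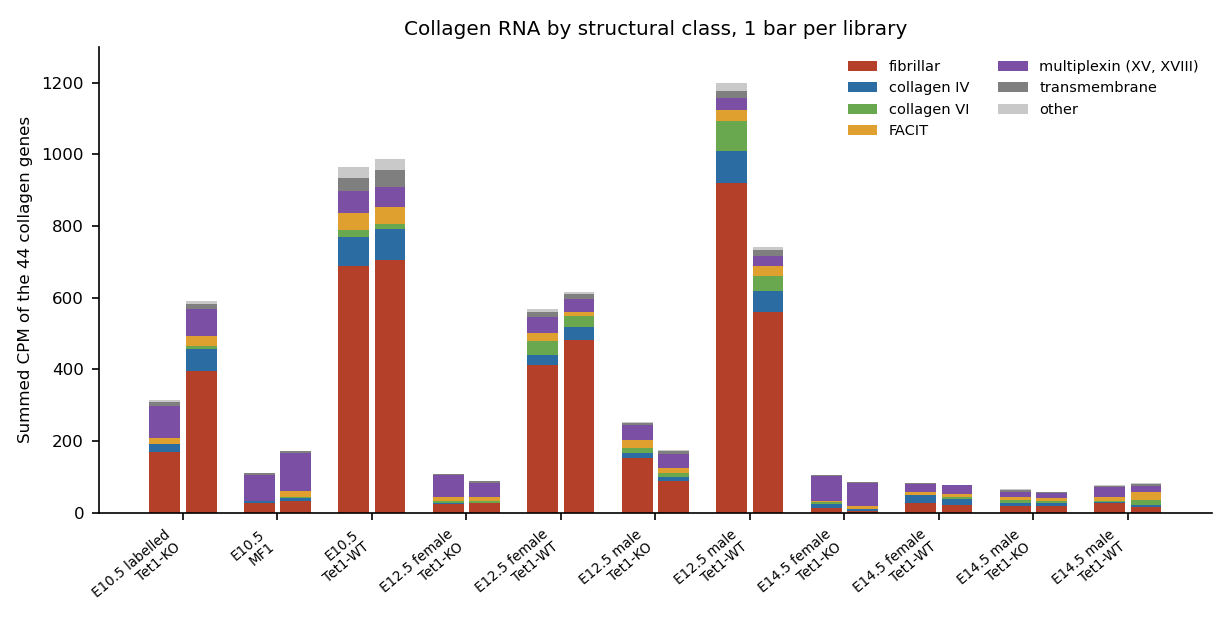
Summed CPM of the 44 collagen genes in each library (bars, 2 per group), stacked by structural class. Fibrillar collagens made up most of the tall bars of Tet1-WT at E10.5 and E12.5. Multiplexins, nearly all Col18a1, made up the largest block in both libraries of MF1, of E12.5 female Tet1-KO and of E14.5 female Tet1-KO. They also did so in some other E14.5 libraries.

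The make-up of the family differed along with its total. Fibrillar genes gave 71.3% of collagen CPM in both E10.5 Tet1-WT libraries and 72.5% to 78% in the 4 E12.5 Tet1-WT libraries, against 54.1% and 67% in the libraries labelled Tet1-KO at E10.5, 23% and 29.1% in E12.5 female Tet1-KO and 60.1% and 50.2% in E12.5 male Tet1-KO. At E14.5 they gave 12.3% and 6.49% in female Tet1-KO against 31.3% and 26.9% in female Tet1-WT, and 29.3% and 33.9% in male Tet1-KO against 34.9% and 20.1% in male Tet1-WT. In MF1 they gave 25.3% and 19.4%. Col18a1 was the most abundant member in all 8 libraries of E14.5, in both of MF1, in both of E12.5 female Tet1-KO and in the second-listed of E12.5 male Tet1-KO. Everywhere else the most abundant member was Col3a1, Col1a2 or Col1a1. Of the 44 genes between 17 and 40 had at least 1 count in a library, the fewest in the second-listed E14.5 female Tet1-KO library. Compared per kilobase of exon, a scale on which genes of different length can be set side by side, the 3 highest levels in E12.5 male Tet1-KO were Col18a1 (5.99 CPM per kb), Col3a1 (4.25) and Col1a1 (3.47). In E12.5 male Tet1-WT they were Col1a1 (27.1), Col3a1 (23.5) and Col1a2 (19.8). In E12.5 females they were Col18a1 (7.22), Col9a1 (1.53) and Col3a1 (0.702) in Tet1-KO, against Col1a1 (22.6), Col3a1 (11.8) and Col1a2 (10.3) in Tet1-WT. At E10.5 they were Col3a1 (14.1), Col18a1 (11.8) and Col1a1 (6.77) in the libraries labelled Tet1-KO, Col18a1 (12.8), Col5a2 (1.39) and Col9a1 (1.17) in MF1, and Col3a1 (33), Col1a1 (17.2) and Col5a2 (9.87) in Tet1-WT. At E14.5 Col18a1 led every group, with 9.69 and 3.45 in female Tet1-KO and Tet1-WT and 1.89 and 3.18 in male Tet1-KO and Tet1-WT. Next in females came Col4a2 (0.608) and Col4a5 (0.304) in Tet1-KO, and Col4a2 (1.25) and Col1a1 (0.986) in Tet1-WT. Next in males came Col9a1 (0.79) and Col6a3 (0.556) in Tet1-KO, and Col9a1 (1.28) and Col1a1 (0.669) in Tet1-WT.

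**Figure D2:**
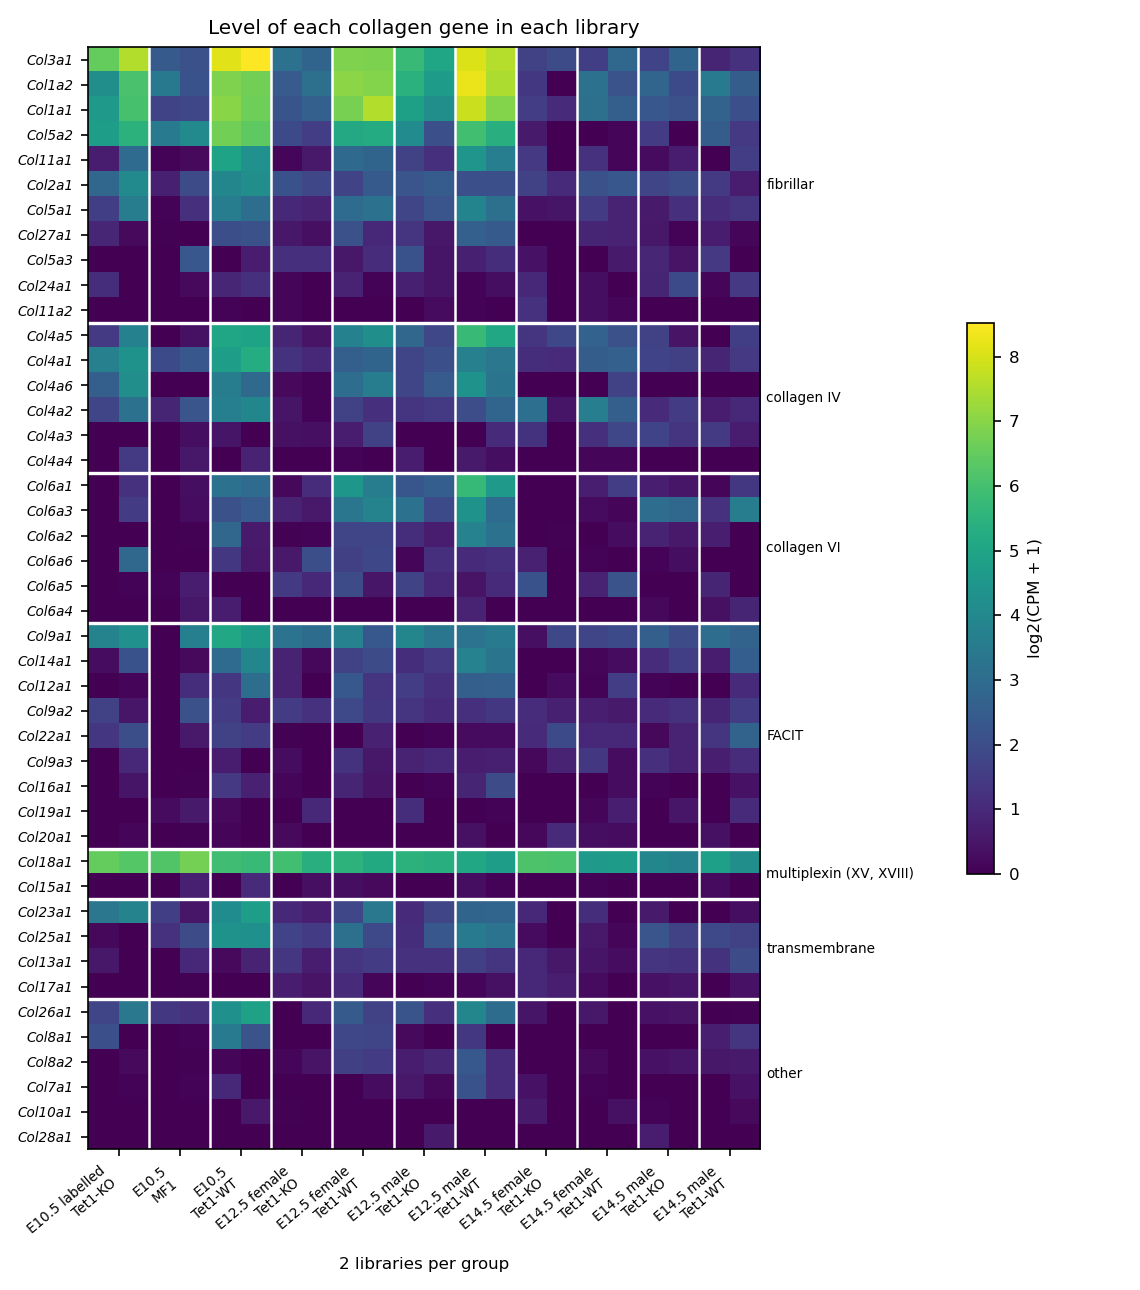
Level of each of the 44 collagen genes, as log2(CPM + 1), in each of the 22 libraries (columns, 2 per group), with genes ordered by class and, within a class, by mean level. The bright fibrillar rows at E10.5 and E12.5 Tet1-WT fade at E14.5, and the Col18a1 row stays bright in every group.

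Col1a1 and Col1a2, which encode the chains of type I collagen, and Col3a1, the chain of type III collagen of loose connective tissue, were the members with the largest amounts of RNA. Col1a1 (ENSMUSG00000001506) stood at 3.6 and 5.08 CPM in E12.5 female Tet1-KO against 110.2 and 186 CPM in female Tet1-WT, and at 27.9 and 17.7 CPM in E12.5 male Tet1-KO against 232 and 123 CPM in male Tet1-WT. Col3a1 stood at 8.07 and 5.71 CPM in E12.5 female Tet1-KO against 116 and 115 CPM in female Tet1-WT, and at 52.3 and 31.15 CPM in E12.5 male Tet1-KO against 271 and 191 CPM in male Tet1-WT. Both genes were lower in every Tet1-KO library than in every Tet1-WT library of these sexes, with no overlap. Tests used edgeR's quasi-likelihood method with Benjamini-Hochberg adjustment over all 17567 genes, and a gene is called at an adjusted p under 0.05.

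In E12.5 females 4 members were called lower and 0 higher, where 1.29% of all genes were called (0.142% higher and 1.15% lower). The median log2 difference of the 39 tested members was -2.79, against -0.02 over all genes. Col1a1 fell by 5.11 on the log2 scale in Tet1-KO (SE 0.54, adjusted p = 0.000307), Col3a1 by 4.06 (SE 0.51, adjusted p = 0.000759) and Col1a2 by 4.39 (SE 0.81, adjusted p = 0.0118). Col1a2 had 4.47 and 7.82 CPM in Tet1-KO and 132 and 123 CPM in Tet1-WT. Col4a1, a collagen IV chain, fell by 2.2 (SE 0.48, adjusted p = 0.0351), with 1.37 and 0.916 CPM in both Tet1-KO libraries against 4.95 and 5.68 CPM in Tet1-WT. Libraries of the 2 genotypes did not overlap for 24 members that were lower and 1 that was higher in Tet1-KO, where 24.5% and 22.8% of all genes showed the same. The calls of Col1a1 and Col3a1 held when any 1 of the 4 libraries was left out. That of Col1a2 was lost without the first-listed (adjusted p = 0.156) or second-listed Tet1-KO library (0.133). Col4a1 lost its call without Tet1-WT replicate 2 (0.223) or the first-listed (0.172) or second-listed (0.485) Tet1-KO library. Nor was Col4a1 called by edgeR on the libraries of this comparison alone (adjusted p = 0.0773) or without a filter on low counts. At an unadjusted p under 0.05 the counts were 14 lower and 0 higher, beside 7.61% and 5.31% of all genes. DESeq2 called 10 lower and 0 higher, beside 3.4% and 1.07% of all genes.

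In E12.5 males the same comparison called 2 members lower and 0 higher, where 1.06% of all genes were called (0.12% higher and 0.939% lower), with a median of -1.9 over the tested members and 0 over all genes. Col1a1 fell by 2.97 (SE 0.48, adjusted p = 0.00806) and Col3a1 by 2.47 (SE 0.46, adjusted p = 0.0186). Col1a2, with 42.5 and 25.01 CPM in both Tet1-KO libraries against 312 and 178 CPM in Tet1-WT, had a difference of -2.86. Col4a1, with 2.44 and 3.27 against 12.04 and 9.4 CPM, had one of -1.9. Neither was called by edgeR (adjusted p = 0.0796 and 0.0662). Both were called lower by limma's voom (7.13e-05 and 0.0108) and by edgeR on the libraries of this comparison alone (0.00658 and 0.0379). DESeq2 called Col4a1 (0.00115) but not Col1a2. Without a filter on low counts edgeR called Col1a2 (5.64e-19) but not Col4a1. The difference of Col1a2 in that fit was -2.85, so its p-value changed and its size hardly did. Members without overlap numbered 24 lower and 4 higher in Tet1-KO, beside 26.6% and 26.7% of all genes. Both calls were lost without Tet1-WT replicate 1 (adjusted p = 0.104 for Col1a1 and 0.191 for Col3a1), the first-listed Tet1-KO library (0.0568 and 0.0696) or the second-listed one (0.173 and 0.278). Unadjusted, 11 members were lower and 0 higher at p under 0.05, beside 8.41% and 6.17% of all genes. DESeq2 called 4 lower and 0 higher, beside 3.68% and 1.08% of all genes. The difference between the Tet1-KO effects of males and females at E12.5 was called for 0 of the 39 members by edgeR and by DESeq2, beside 0% of all genes in edgeR and 0.176% in DESeq2. At an unadjusted p under 0.05 it was higher for 3 members and lower for 0, beside 2.43% and 3.3% of all genes. A p that misses the threshold does not show that the sexes were alike.

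At E10.5 the libraries labelled Tet1-KO lay below Tet1-WT in the abundant fibrillar genes, which did not pass edgeR's test. Col1a1 had 23.7 and 65.2 CPM in both libraries labelled Tet1-KO and 127 and 98.4 CPM in Tet1-WT (log2 -1.34, SE 0.45, adjusted p = 0.0772). Col3a1 had 91.2 and 186 CPM in both libraries labelled Tet1-KO and 279.8 and 369 CPM in Tet1-WT (log2 -1.22, SE 0.44, adjusted p = 0.0988). DESeq2 called Col1a1 and Col3a1 lower (adjusted p = 0.0243 and 0.04), as did edgeR without a filter on low counts (0.000178 and 5.38e-05). The unfiltered fit gave the same log2 differences, -1.34 and -1.22, so it changed the p-values and not the sizes. Neither gene was called by limma's voom or by edgeR on the libraries of this comparison alone. For both genes the library labelled Tet1-KO replicate 2 lay nearer to Tet1-WT than replicate 1 did, and without it the adjusted p was 0.00905 and 0.0374. With all libraries of the Tet1 cross edgeR called 2 members lower and 0 higher, where 8.81% of all genes were called (4.1% higher and 4.7% lower). The median was -1.34, against 0 over all genes and -1.03 with the 6 members at 0 in a group held at their bounds or, for 2 of them, left out.

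The 2 members that edgeR called lower at E10.5 were Col25a1 and Col6a2. Col25a1, a transmembrane collagen known from neurons, had 0.137 and 0 CPM in both libraries labelled Tet1-KO and 19.7 and 18.6 CPM in E10.5 Tet1-WT (adjusted p = 0.0026). With 2 counts in all in the libraries labelled Tet1-KO, the ratio of pooled rates was 314-fold in favour of Tet1-WT, with an exact 95% counting interval of 86.5 to 2596, and the fitted log2 difference of -8.09 (SE 1.32) ran from -11.38 to -7.08 without 1 library. That call held without any 1 library but not in a fit of these 4 libraries alone (adjusted p = 0.156). Col6a2, a chain of collagen VI, was at 0 counts in both libraries labelled Tet1-KO and had 5.99 and 0.54 CPM in Tet1-WT. It was thus at least 17.6-fold lower (3 counts per library as the floor, adjusted p = 0.0329), a bound that was 2.92-fold without Tet1-WT replicate 1 and 32.4-fold without Tet1-WT replicate 2, and the call was lost without Tet1-WT replicate 1 (0.146) or the library labelled Tet1-KO replicate 1 (0.0984) or 2 (0.0868). Col6a2 was not called by limma's voom (adjusted p = 0.215) or by edgeR with the replicate number as a block (0.118). Members without overlap numbered 20 lower and 1 higher, beside 25.1% and 20.1% of all genes. Unadjusted, 7 members were lower and 1 higher at p under 0.05, beside 14.2% and 11.2% of all genes. DESeq2 called 6 lower and 0 higher, beside 9.68% and 6.37% of all genes. Without the library labelled Tet1-KO replicate 2 edgeR called 6 lower, where 10.2% of all genes were called. Without replicate 1 of either genotype it called 1, where 6.22% were called without the library labelled Tet1-KO and 5.04% without Tet1-WT.

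**Figure D3:**
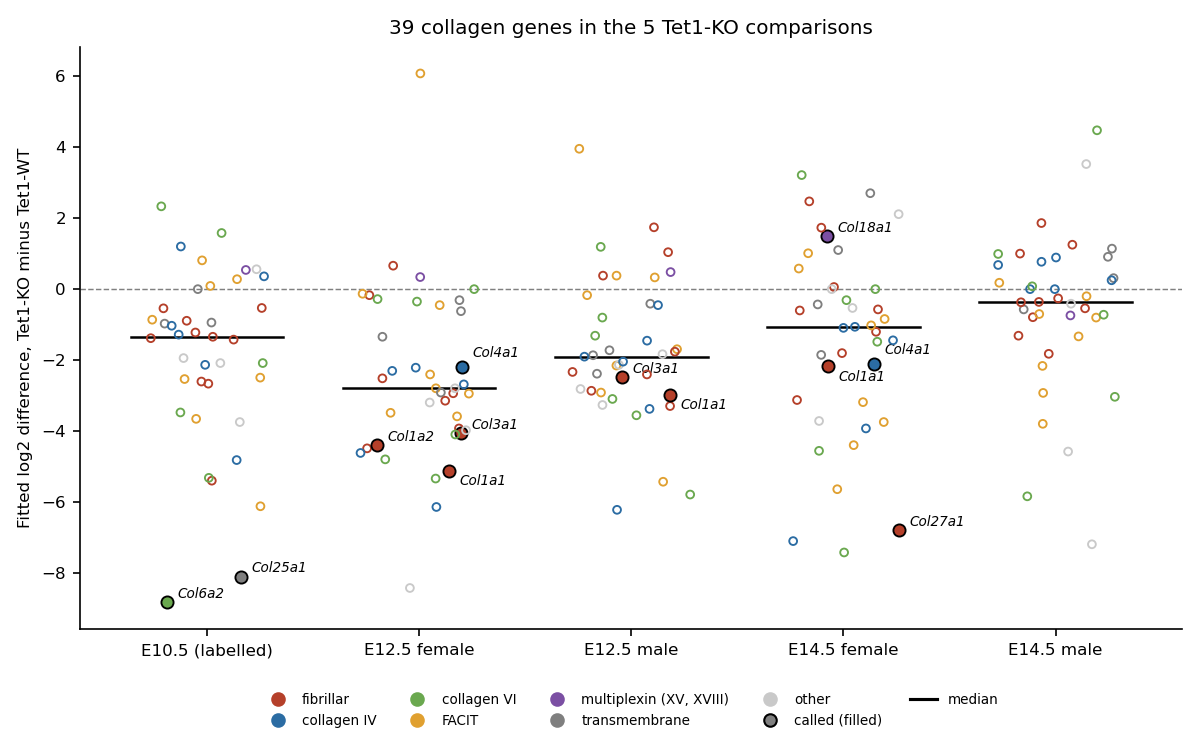
Fitted log2 difference, Tet1-KO minus Tet1-WT, of the 39 tested collagen genes (points, coloured by class, spread sideways at random) in the 5 pairs of groups, with called genes filled and the median as a line. The median runs at -1.34, -2.79, -1.9, -1.06 and -0.36, and Col18a1 in E14.5 females is the 1 called point above 0.

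At E14.5, when the summed collagen level was low in all groups, females and males differed in what the comparison showed. In females 3 members were called lower and 1 higher in Tet1-KO, where 6.65% of all genes were called (3.36% higher and 3.29% lower). Among the lower ones were Col1a1 with 1.91 and 1.08 CPM in both Tet1-KO libraries against 7.95 and 4.98 CPM in Tet1-WT (log2 -2.17, SE 0.55, adjusted p = 0.0271) and Col4a1 with 1.19 and 1.08 against 4.73 and 5.19 CPM (log2 -2.12, SE 0.49, adjusted p = 0.0174). Col27a1, a fibrillar collagen of cartilage, had 0 counts in both Tet1-KO libraries against 0.856 and 0.742 CPM in Tet1-WT (at least 4.8-fold lower, adjusted p = 0.0443). These are differences between low levels. By limma's voom none of the 3 was called (adjusted p = 0.304 for Col1a1, 0.0795 for Col4a1 and 0.0504 for Col27a1). The same held for edgeR on the libraries of this comparison alone (adjusted p = 0.119, 0.127 and 0.146). The call of Col1a1 was lost without Tet1-WT replicate 1 (adjusted p = 0.281) or the second-listed Tet1-KO library (0.285), and those of Col4a1 and Col27a1 were lost whichever 1 of the 4 libraries was left out, with an adjusted p of up to 0.178 and 0.295. Col1a2, not called with all libraries (log2 -3.12, adjusted p = 0.0631), passed without the first-listed Tet1-KO library (adjusted p = 0.00959), the second-listed one being at 0. The median of the tested members was -1.06, beside -0.03 over all genes, and -0.72 with the 9 members at 0 in a group held at their bounds or, for 5 of them, left out. Members without overlap numbered 12 lower and 5 higher, beside 29.3% and 21.6% of all genes, and at an unadjusted p under 0.05 there were 7 lower and 1 higher, beside 11.2% and 9.79%.

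Col18a1 was the member that rose in E14.5 female Tet1-KO. It encodes the core of a basement membrane proteoglycan whose C-terminal fragment is endostatin, an inhibitor of vessel growth. Its level was 69.6 and 66.4 CPM in both Tet1-KO libraries against 23.5 and 25.02 CPM in Tet1-WT, with no overlap (log2 1.49, SE 0.25, adjusted p = 0.00376); the call was lost without Tet1-WT replicate 1 (adjusted p = 0.0719). Germ cell genes were higher in the same libraries, with 9 of the 14 called higher and 0 lower by edgeR in E14.5 female Tet1-KO, beside 3.36% and 3.29% of all genes. Among them were Tfap2c (log2 2.67, adjusted p = 0.00263), Dnd1 (2.05, 0.00263) and Sall4 (1.32, 0.00376), although the sum of the list was 5907 and 6287 CPM in Tet1-KO and 6689 and 6369 CPM in Tet1-WT. Pecam1, of endothelial and germ cells, had 164 ± 65.4 CPM in Tet1-KO and 63.96 ± 10.6 CPM in Tet1-WT (log2 1.36, adjusted p = 0.0284). The part of these genes in the Col18a1 difference was not tested. In E14.5 males the order of Col18a1 was the opposite, with 14 and 12.6 CPM in both Tet1-KO libraries against 27.1 and 17.5 CPM in Tet1-WT, a difference that was not called (log2 -0.74, SE 0.25, adjusted p = 0.274). The difference between these effects, males minus females, was -2.23 (SE 0.35, adjusted p = 0.0097) and 1.43% of all genes were called in that comparison (0.951% higher, 0.478% lower). Without E14.5 female Tet1-WT replicate 1 the adjusted p was 0.0684. At the earlier stages Col18a1 was not called and the genotypes overlapped in E12.5 females. It had 89.9 and 76.4 CPM in libraries labelled Tet1-KO against 59.9 and 54.4 CPM in Tet1-WT at E10.5 (adjusted p = 0.173). At E12.5 Tet1-KO and Tet1-WT had 60.2 and 41.1 against 44.8 and 35.2 CPM in females (adjusted p = 0.617), and 43.85 and 40.3 against 33.6 and 26.7 CPM in males (adjusted p = 0.377).

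In E14.5 males 0 of the 39 members were called in either direction by edgeR, where 0.102% of all genes were called (0.0797% higher and 0.0228% lower). At an unadjusted p under 0.05 there were 1 higher and 2 lower, beside 7.24% and 3.1% of all genes. DESeq2 called 1 higher, beside 1.53%, and limma's voom called 0, beside 0.638% in either direction. Col3a1 had 2.32 and 5.71 CPM in both Tet1-KO libraries against 0.832 and 1.32 CPM in Tet1-WT (log2 1.86, SE 0.58, adjusted p = 0.24). Col1a1 had 3.935 and 3.34 CPM in both Tet1-KO libraries against 5.585 and 3.2 CPM in Tet1-WT (log2 -0.26, SE 0.51, adjusted p = 0.956). Members without overlap numbered 6 lower and 7 higher, beside 18.7% and 24.9% of all genes.

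**Figure D4:**
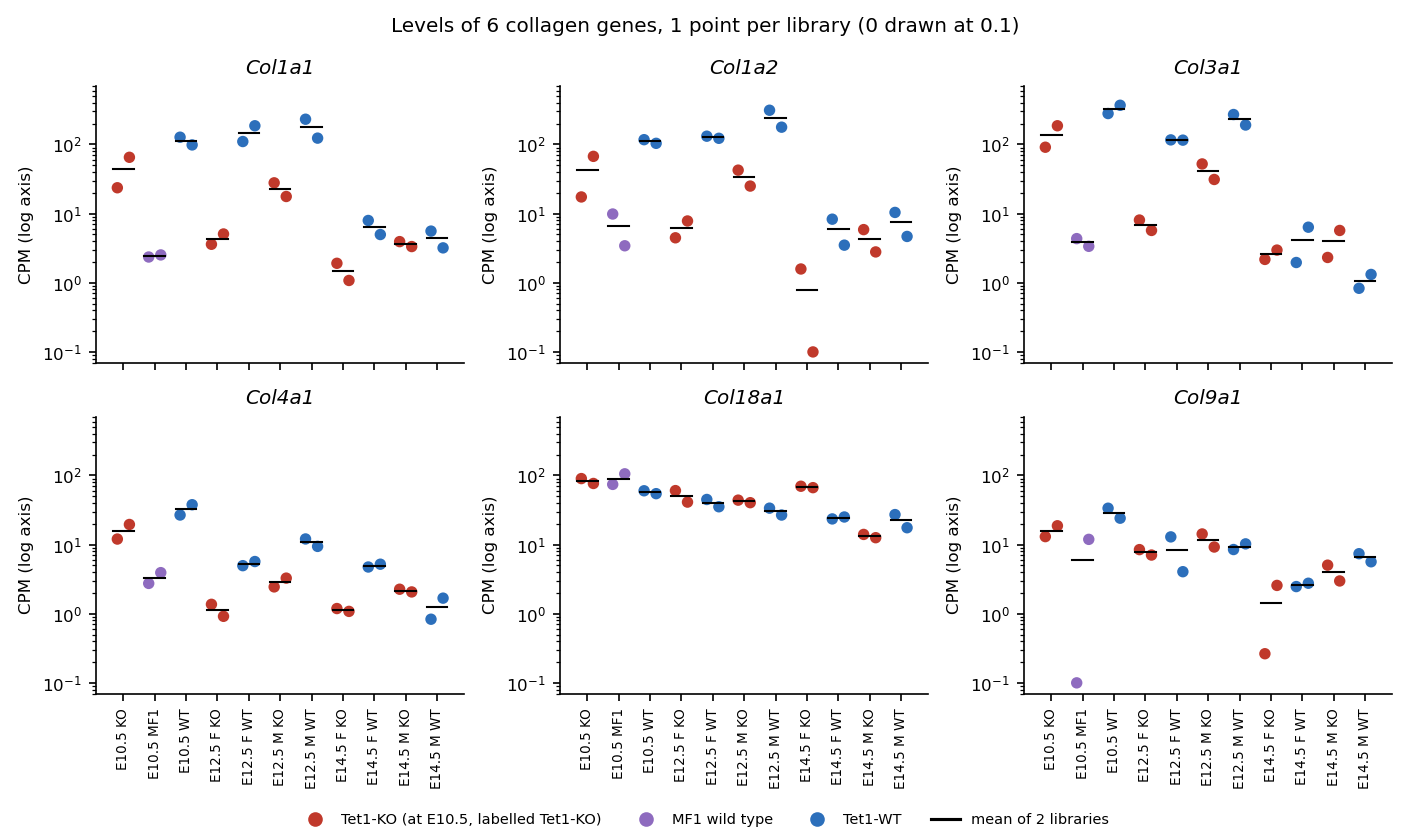
CPM of Col1a1, Col1a2, Col3a1, Col4a1, Col18a1 and Col9a1 in every library (points, log axis, F female and M male, 0 drawn at 0.1), with the mean of each group as a line. The 3 type I and III genes are lower in E12.5 Tet1-KO than in E12.5 Tet1-WT and low in all E14.5 libraries, while Col18a1 stays between 12.6 and 105 CPM throughout.

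Whether the Tet1-KO effect itself differed between stages was tested within each sex. Col3a1 was the 1 member called, with an effect at E14.5 minus that at E12.5 of 3.48 in females (SE 0.73, adjusted p = 0.0316) and 4.33 in males (SE 0.74, adjusted p = 0.0143), where 1.3% (0.74% higher, 0.564% lower) and 0.803% (0.734% higher, 0.0683% lower) of all genes were called. At E14.5 Col3a1 was at or below 6.36 CPM in every library of both genotypes. In females the call was lost without E12.5 Tet1-WT replicate 2 (adjusted p = 0.0916), the first-listed (0.0815) or second-listed (0.122) E12.5 Tet1-KO library, E14.5 Tet1-WT replicate 1 (0.153) or the second-listed E14.5 Tet1-KO library (0.126). In males it was lost without Tet1-WT replicate 1 of E12.5 (0.0634) or E14.5 (0.0524) or the second-listed Tet1-KO library of E12.5 (0.0737) or E14.5 (0.0865). Col1a1 showed differences of 2.94 in females and 2.71 in males that were not called (adjusted p = 0.0618 and 0.0763). Between the sexes at E14.5 the effect on Col4a1 also differed (males minus females 2.89, SE 0.68, adjusted p = 0.0482), a call kept without male Tet1-WT replicate 2 and lost without any other of the 8 libraries involved, with an adjusted p between 0.078 and 0.185.

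Within Tet1-WT, collagen RNA fell between E12.5 and E14.5 in both sexes. In females 10 of the 39 members were called lower and 0 higher at E14.5 than at E12.5, where 25.3% of all genes were called (11.3% higher and 14% lower). In males 11 were called lower and 0 higher, where 12.7% were called (4.92% higher and 7.75% lower). Unadjusted, at p under 0.05, 18 were lower and 1 higher in females, beside 19.7% and 16.1% of all genes, and 17 lower and 1 higher in males, beside 15.4% and 11.8%. Col3a1 stood at 1.96 and 6.36 CPM at E14.5 against 116 and 115 CPM at E12.5 in females (log2 -4.9, SE 0.54, adjusted p = 1.38e-05). In males it stood at 0.832 and 1.32 CPM at E14.5 against 271 and 191 CPM at E12.5 (log2 -7.7, SE 0.62, adjusted p = 3.43e-06). Col1a1 had a log2 difference of -4.49 in females (SE 0.52) and -5.35 in males (SE 0.54), with an adjusted p of 2.08e-05 in both. Col1a2 fell by 4.38 (SE 0.81, adjusted p = 0.000905) and 5.04 (SE 0.83, adjusted p = 0.00114). Col5a2, a chain of the type V collagen that starts fibrils, had 0 and 0.106 CPM at E14.5 against 34.1 and 36.8 CPM at E12.5 in females (adjusted p = 0.000308). With 1 count in all at E14.5, the ratio of pooled rates was 1041-fold in favour of E12.5, with an exact 95% counting interval of 187 to 41165, and the fitted log2 difference of -9.72 (SE 1.58) ran from -12.28 to -8.29 without 1 library. Col4a1 fell in males, with 0.832 and 1.68 CPM at E14.5 against 12.04 and 9.4 CPM at E12.5 (log2 -3.07, SE 0.49, adjusted p = 0.000925). In females it had 4.73 and 5.19 CPM at E14.5 and 4.95 and 5.68 CPM at E12.5 (log2 -0.1, adjusted p = 0.913). These 8 calls held when any 1 of the 4 libraries of the comparison was left out. The count of called members did not: it was 5 in females without E12.5 replicate 1 (19.8% of all genes called) or E14.5 replicate 1 (12.9%) or 2 (16.9%), and 7 in males without E12.5 replicate 1 (4.01%) or E14.5 replicate 2 (4.5%). Col4a6, an X-linked collagen IV chain, was at 0 in both E14.5 male libraries against 19.5 and 8.71 CPM at E12.5, at least 94.6-fold lower (adjusted p = 0.00553; at least 58.4-fold without E12.5 replicate 1). The median over the tested members was -2.29 in females and -2.5 in males, beside -0.07 and 0 over all genes.

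Between E10.5 and E12.5 the fibrillar genes of Tet1-WT did not move as a block. In females 3 members were called lower at E12.5 than at E10.5 and 0 higher, where 13.6% of all genes were called (8.81% higher and 4.83% lower). In males 3 were lower and 0 higher, where 9.45% were called (6.4% higher and 3.05% lower). Unadjusted, at p under 0.05, 7 were lower and 3 higher in females, beside 11% and 16.5% of all genes, and 5 lower and 2 higher in males, beside 8.93% and 14.2%. Col4a1 fell to 4.95 and 5.68 CPM in E12.5 females, against 26.7 and 37.65 CPM at E10.5 (log2 -2.6, SE 0.47, adjusted p = 0.00193), a call kept without any 1 library. Col2a1, the main collagen of cartilage and notochord, fell by 2.25 in females (SE 0.66, adjusted p = 0.0326) and by 2.3 in males (SE 0.66, adjusted p = 0.0391). Col3a1 fell by 1.48 in females (SE 0.45, adjusted p = 0.0372), and in males Col4a1 fell by 1.59 (SE 0.46, adjusted p = 0.0392) and Col18a1 by 0.92 (SE 0.24, adjusted p = 0.0253). All of these except Col4a1 in females were lost whichever 1 of the 4 libraries was left out, with an adjusted p of up to 0.198 and 0.254 for Col2a1 in females and males, 0.178 for Col3a1, 0.321 for Col4a1 in males and 0.277 for Col18a1. Col1a1 and Col1a2 were not called, with log2 differences of 0.39 and 0.2 in females and 0.65 and 1.15 in males (adjusted p = 0.622, 0.898, 0.415 and 0.352). The stage comparisons share their Tet1-WT libraries with the Tet1-KO comparisons above.

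Male and female Tet1-WT germ cells were also compared. At E12.5 edgeR, DESeq2 and limma's voom each called 0 of 39 members, where edgeR called 0.575% of all genes (0.245% higher and 0.33% lower). DESeq2 called 4.29% and voom 1.09% of all genes. At an unadjusted p under 0.05 there were 2 higher and 0 lower in males, beside 5.94% and 6.71% of all genes. At E14.5 edgeR called 3 members higher and 4 lower in males, where 28.1% of all genes were called (14% higher and 14.1% lower). Collagen IV chains were among the lower ones. Col4a1 had 0.832 and 1.68 CPM in males against 4.73 and 5.19 CPM in females (log2 -1.96, SE 0.48, adjusted p = 0.00599; 0.0743 without male replicate 1). Col4a2 had 0.594 and 0.959 CPM in males against 11.6 and 4.98 CPM in females (log2 -3.4, SE 1.11, adjusted p = 0.0309). Col4a2 lost its call without female replicate 1 (0.185), male replicate 1 (0.159) or male replicate 2 (0.106). Col4a6 was at 0 in both male libraries and at 0 and 2.12 CPM in females, so it had an adjusted p of 0.0273 with, and of 1 without, female replicate 2. Its call was also lost without male replicate 1 (0.0905) or 2 (0.127). Col3a1 was lower in males as well (log2 -1.81, SE 0.6, adjusted p = 0.0329), but not without female replicate 2 (0.396), male replicate 1 (0.149) or male replicate 2 (0.0747).

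The 3 members higher in E14.5 males were Col5a2, Col6a3 and Col14a1. Col5a2 had 4.75 and 1.68 CPM in males against 0 and 0.106 CPM in females (fitted log2 6.23, SE 1.72, adjusted p = 0.0129), a ratio of pooled rates of 85.4 with an exact 95% counting interval of 15 to 3401, since females held 1 count in all. Col6a3, the long chain of collagen VI, had 1.31 and 11.3 CPM in males against 0.201 and 0.106 CPM in females (log2 5.21, SE 1.46, adjusted p = 0.0154). Col14a1, a FACIT collagen, had 0.594 and 4.795 CPM against 0.101 and 0.212 CPM (log2 4.15, SE 1.39, adjusted p = 0.0368). Male replicate 2 carried the higher value of the pair for Col6a3 and Col14a1, and without it the adjusted p was 0.181 and 0.385. The calls were also lost without female replicate 1 (0.15 for Col5a2, 0.0985 for Col6a3, 0.232 for Col14a1), without male replicate 1 for Col5a2 (0.0595) and without female replicate 2 for Col6a3 (0.095) and Col14a1 (0.113). Collagen IV in E14.5 females was also uneven in its chains: the ratio of Col4a2 to Col4a1 was 6.44 and 0.375 in Tet1-KO and 2.46 and 0.959 in Tet1-WT, and below 1 in every other library.

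The 2 wild-type sources at E10.5 differed in Col3a1 and Col1a1, which were low in MF1. Col3a1 had 4.35 and 3.365 CPM in MF1, against 279.8 and 369 CPM in Tet1-WT, and Col1a1 had 2.36 and 2.53 CPM in MF1, against 127 and 98.4 CPM in Tet1-WT. In a separate fit of these 4 libraries both were called lower in MF1, by 6.4 (SE 0.42) and 5.54 (SE 0.42) on the log2 scale with an adjusted p of 0.0351 each. Col1a2, the other type I gene, had 6.65 ± 4.55 CPM in MF1 and 110.5 ± 9.43 CPM in Tet1-WT and was not called. Of the 33 members 0 were called higher, where 0.606% of all genes were called (0.0903% higher and 0.516% lower). Col18a1 had 74.1 and 105 CPM in MF1, against 59.9 and 54.4 CPM in Tet1-WT (log2 0.64, SE 0.35, adjusted p = 0.364). Both calls held without any 1 library, while limma's voom did not call Col1a1 (log2 -5.52, adjusted p = 0.0574). The count of calls moved together with that over all genes. It was 17 lower and 1 higher without MF1 replicate 1 (27.2% of all genes called) and 23 lower without MF1 replicate 2 (29.3%). It was 4 lower without Tet1-WT replicate 1 (1.34%) and 6 lower without Tet1-WT replicate 2 (1.27%). Unadjusted, 20 members were lower and 0 higher at p under 0.05, beside 13.5% and 8.07% of all genes. DESeq2 called 18 lower and 0 higher, beside 10.1% and 5.78%, and members without overlap numbered 26 lower and 1 higher, beside 33.1% and 24.8% of all genes. Cross, cell number and extraction kit differ together between these groups and cannot be told apart.

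The members followed the rest of the family to different degrees. The Pearson correlation of a member's log2(CPM + 1) with that of the sum of the other 43 members over the 20 libraries of the Tet1 cross, a description over libraries that share groups, was 0.95 for Col3a1 and Col5a2, 0.94 for Col1a1, 0.93 for Col5a1, Col4a6 and Col26a1 and 0.9 for Col1a2 and Col23a1. It was 0.82 for Col4a1, 0.46 for Col4a2, 0.66 for Col9a1 and 0.26 for Col18a1, the 1 abundant member that stood apart.

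The other members that reached 20 CPM in a group were not called in any Tet1-KO comparison. Several had non-overlapping genotypes, with Tet1-KO lower. Such non-overlap held for 25.1% of all genes at E10.5, and for 24.5% and 26.6% in females and males of E12.5. For a single gene it therefore does not show a difference. Col5a2 had 2.73 and 1.9 CPM in E12.5 female Tet1-KO against 34.1 and 36.8 CPM in Tet1-WT (log2 -3.92, SE 0.97, adjusted p = 0.0623), and 16.2 and 3.2 CPM in male Tet1-KO against 60.98 and 40.9 CPM in Tet1-WT (adjusted p = 0.23). Col4a5, an X-linked collagen IV chain, had 0.828 and 0.352 CPM in E12.5 female Tet1-KO against 12.4 and 17.9 CPM in Tet1-WT (log2 -4.61, SE 1.2, adjusted p = 0.0774). In males it had 5.98 and 2.535 CPM in both Tet1-KO libraries against 54.5 and 33.4 CPM in Tet1-WT (adjusted p = 0.169). Col6a1, a chain of collagen VI, had 0.124 and 1.13 CPM in E12.5 female Tet1-KO against 21.9 and 11.04 CPM in Tet1-WT (adjusted p = 0.105), and 3.87 and 4.87 CPM in male Tet1-KO against 51.2 and 23.2 CPM in Tet1-WT (adjusted p = 0.251). For all 3 genes each Tet1-KO library of E12.5 lay below each Tet1-WT library of its sex. Col11a1, a minor fibrillar collagen, had 0.617 and 6.96 CPM in both libraries labelled Tet1-KO at E10.5 against 29.6 and 18.7 CPM in Tet1-WT (adjusted p = 0.285). Col23a1, a transmembrane collagen, had 9.46 and 12.98 CPM in both libraries labelled Tet1-KO at E10.5 against 16.7 and 26.3 CPM in Tet1-WT (adjusted p = 0.713), and Col26a1 had 2.47 and 9.7 CPM against 18.6 and 28.4 CPM (adjusted p = 0.356). Col9a1, a FACIT collagen best known from cartilage, kept 13.02 and 18.7 CPM in both libraries labelled Tet1-KO at E10.5 against 33.5 and 24.04 CPM in Tet1-WT, next to 14.2 and 9.205 CPM in E12.5 male Tet1-KO against 8.47 and 10.2 CPM in male Tet1-WT. The 2 genotypes overlapped for Col9a1 in E12.5 males. Col9a2, its partner chain, stayed at or below 3.38 CPM in every library.

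Genes that process collagen were examined as lists, chosen like the members with earlier results of these data known. Of 18 tested genes for collagen modification, folding and export, 3 fell and 0 rose at E10.5 in the libraries labelled Tet1-KO, 2 fell and 0 rose in Tet1-KO females and likewise in Tet1-KO males at E12.5, 1 rose in females at E14.5 and 0 were called in males at E14.5. The shares of all genes were 4.7% lower at E10.5, 1.15% and 0.939% lower in females and males at E12.5 and 3.36% higher in females at E14.5. Fkbp10, a procollagen chaperone, had 1.55 ± 0.497 CPM in E12.5 female Tet1-KO and 23.1 ± 3.7 CPM in Tet1-WT (log2 -3.91, adjusted p = 0.00249). Serpinh1, the collagen chaperone Hsp47, had 223 ± 5.07 CPM in E12.5 male Tet1-KO and 877 ± 209 CPM in Tet1-WT (log2 -1.98, adjusted p = 0.00653). In E14.5 females it went the other way, with 141 ± 39.4 CPM in Tet1-KO and 58.8 ± 8.24 CPM in Tet1-WT (log2 1.26, adjusted p = 0.0187). The summed level of this list varied far less than that of the collagens, from 1054 CPM to 2739 CPM over the Tet1 cross.

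Of 11 tested genes for propeptide cleavage and crosslinking 1 fell at E10.5 and in E12.5 females and males, and 1 rose in E14.5 females, beside 4.7% of all genes lower at E10.5, 1.15% and 0.939% lower in females and males at E12.5 and 3.36% higher in E14.5 females. A single gene of 11 is too few to set apart from these shares. Pcolce, an enhancer of procollagen C-proteinase, had 2.04 ± 0.0972 CPM in E12.5 female Tet1-KO and 25.1 ± 5.36 CPM in Tet1-WT (log2 -3.61, adjusted p = 0.00628). It had 13.5 ± 0.362 CPM in male Tet1-KO and 74.1 ± 25.2 CPM in Tet1-WT (log2 -2.46, adjusted p = 0.0453). Of 8 collagen receptor genes 2 fell at E10.5 (4.7% of all genes lower), Itgb1 (the shared integrin beta chain, log2 -1.04, adjusted p = 0.00783) and Ddr1 (a collagen-binding kinase, log2 -1.85, adjusted p = 0.0422). None was called at E12.5, and Itga1 rose in E14.5 females, to 4.09 ± 2.99 CPM in Tet1-KO, against 0.156 ± 0.0787 CPM in Tet1-WT. Of 10 genes of collagen breakdown and its inhibitors 3 fell in E12.5 females, Timp3, Mmp2 and Mmp16, where 1.15% of all genes were lower. In E14.5 females Timp1, an inhibitor of matrix proteinases, rose, with 1.64 ± 0.288 CPM in Tet1-KO and 0.307 ± 0.135 CPM in Tet1-WT (log2 2.31, adjusted p = 0.0172). Timp3 also fell in E12.5 males (9.57 ± 2.78 CPM in Tet1-KO and 68.9 ± 11 CPM in Tet1-WT, log2 -2.85, adjusted p = 0.0287).

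Laminins and other basement membrane proteins were called in both directions. Of 20 tested 2 rose and 1 fell at E10.5, 0 rose and 3 fell in E12.5 females and in E12.5 males, 3 rose and 2 fell in E14.5 females and 0 were called in E14.5 males, with a median log2 difference of -0.11, -0.93, -0.93, 0.1 and 0.24. Over all genes 4.1% were higher and 4.7% lower at E10.5, 1.15% and 0.939% lower in females and males at E12.5, and 3.36% higher and 3.29% lower in E14.5 females. Nid2, a linker of laminin and collagen IV, had 259.7 ± 30.9 CPM in libraries labelled Tet1-KO at E10.5 and 115 ± 33.6 CPM in Tet1-WT (log2 1.17, adjusted p = 0.00616). It had 218 ± 75 CPM in E14.5 female Tet1-KO and 95.04 ± 6.06 CPM in Tet1-WT (log2 1.2, adjusted p = 0.00655). Its relative Nid1 fell in E12.5 females, with 5.4 ± 1.56 CPM in Tet1-KO and 31.6 ± 13.4 CPM in Tet1-WT (log2 -2.54, adjusted p = 0.00798). Of 18 tested genes of other interstitial matrix proteins 6 fell and 0 rose in E12.5 females (1.15% of all genes lower), and 4 fell and 0 rose in E12.5 males (0.939%). At E10.5 3 of them fell (4.7%), Bgn, Fbln2 and Thbs2, and in E14.5 females 2 fell (3.29%), Fbn1 and Dcn. Dcn, a proteoglycan that binds collagen fibrils, had 0.928 ± 0.0831 CPM in E12.5 female Tet1-KO and 31.7 ± 0.941 CPM in Tet1-WT (log2 -5.09, adjusted p = 0.0048). It had 4.83 ± 0.316 CPM in male Tet1-KO and 72.5 ± 22.5 CPM in Tet1-WT (log2 -3.91, adjusted p = 0.0215).

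Markers of other cell types were summed beside the collagens. The 15 markers of gonadal and mesonephric mesenchyme summed to 478 and 867 CPM in both libraries labelled Tet1-KO, 91.1 and 97.8 CPM in MF1 and 1664 and 2138 CPM in Tet1-WT at E10.5. At E12.5 they summed to 174 and 138 CPM in female Tet1-KO against 676 and 999 CPM in female Tet1-WT, and to 212 and 131 CPM in male Tet1-KO against 1292 and 857 CPM in male Tet1-WT. At E14.5 they summed to 183 and 183.5 CPM in female Tet1-KO against 115 and 121 CPM in female Tet1-WT, and to 23.35 and 19.3 CPM in male Tet1-KO against 20.4 and 21.2 CPM in male Tet1-WT. The libraries with high mesenchyme sums were those with high collagen sums. Of the 15 markers 1 rose and 3 fell at E10.5, 5 fell in E12.5 females and 4 fell in E12.5 males, with none called by edgeR at E14.5. Over all genes 4.1% were higher and 4.7% lower at E10.5, and 1.15% and 0.939% lower in females and males at E12.5. Pdgfrb, a receptor of mesenchymal cells, had 2.99 ± 0.635 CPM in E12.5 female Tet1-KO and 40.6 ± 3.3 CPM in Tet1-WT (log2 -3.75, adjusted p = 0.00243). The part of mesenchymal RNA in the collagen differences was not tested.

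Gata2, a transcription factor on the mesenchyme list, gave 132 and 98.4 CPM of the sum in E12.5 female Tet1-KO and 165 and 157 CPM of that in E14.5 female Tet1-KO. Without it, an omission chosen after its values were seen, the other 14 markers summed to 41.8 and 40.03 CPM in E12.5 female Tet1-KO against 542 and 884 CPM in Tet1-WT, and to between 17.5 and 29.65 CPM in all 8 E14.5 libraries. Sums of the supporting cell markers of the ovary were 6.66 and 4.09 CPM in E12.5 female Tet1-KO against 32.7 and 55.9 CPM in Tet1-WT. Most of the Tet1-WT sum was Wt1 (29.02 ± 17.7 CPM). Wt1 was not particular to females, with 37.9 ± 23.6 CPM in E12.5 male Tet1-WT. Sums of the supporting cell markers of the testis were 25.8 and 20.1 CPM in E12.5 male Tet1-KO against 64.4 and 59.6 CPM in Tet1-WT. None of the 9 and 8 tested markers was called by edgeR in these comparisons. The 12 endothelial and blood markers summed to 343 and 412 CPM in E12.5 female Tet1-KO and 306 and 438 CPM in Tet1-WT, most of it Pecam1 (364 ± 48.5 CPM in Tet1-KO and 358 ± 99.4 CPM in Tet1-WT), which germ cells also express. At E10.5 this list summed to 215 and 177 CPM in both libraries labelled Tet1-KO, with 9 and 7 of its genes at 0, and to 141 and 126 CPM in Tet1-WT, with 1 gene at 0 in each. Of its 12 genes 4 fell and 1 rose there, where 4.7% of all genes were lower and 4.1% higher. Among those that fell were Emcn (at 0 in both libraries labelled Tet1-KO, 9.83 ± 4.96 CPM in Tet1-WT) and Esam (at 0, against 5.15 ± 0.657 CPM), which mark endothelium. Pecam1 rose (180 ± 36 against 76.4 ± 16.8 CPM, log2 1.24, adjusted p = 0.0383). In E14.5 females, where 3.36% of all genes were higher and 3.29% lower, 1 rose, Pecam1, and 1 fell, Csf1r. Csf1r, a macrophage receptor, was at 0 in both Tet1-KO libraries and at 1.13 ± 0.251 CPM in Tet1-WT. The part of these endothelial and blood genes in the collagen differences was not tested. The germ cell genes summed to 8362 and 8231 CPM in E12.5 female Tet1-KO against 7953 and 8723 CPM in Tet1-WT, and to 9203 and 9257 CPM in male Tet1-KO against 6280.0 and 7493 CPM in male Tet1-WT. At E10.5 they summed to 6904 and 4500.0 CPM in both libraries labelled Tet1-KO, 6372 and 7957 CPM in MF1 and 2100.0 and 1750.0 CPM in Tet1-WT, the group with the highest mesenchyme sums.

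**Figure D5:**
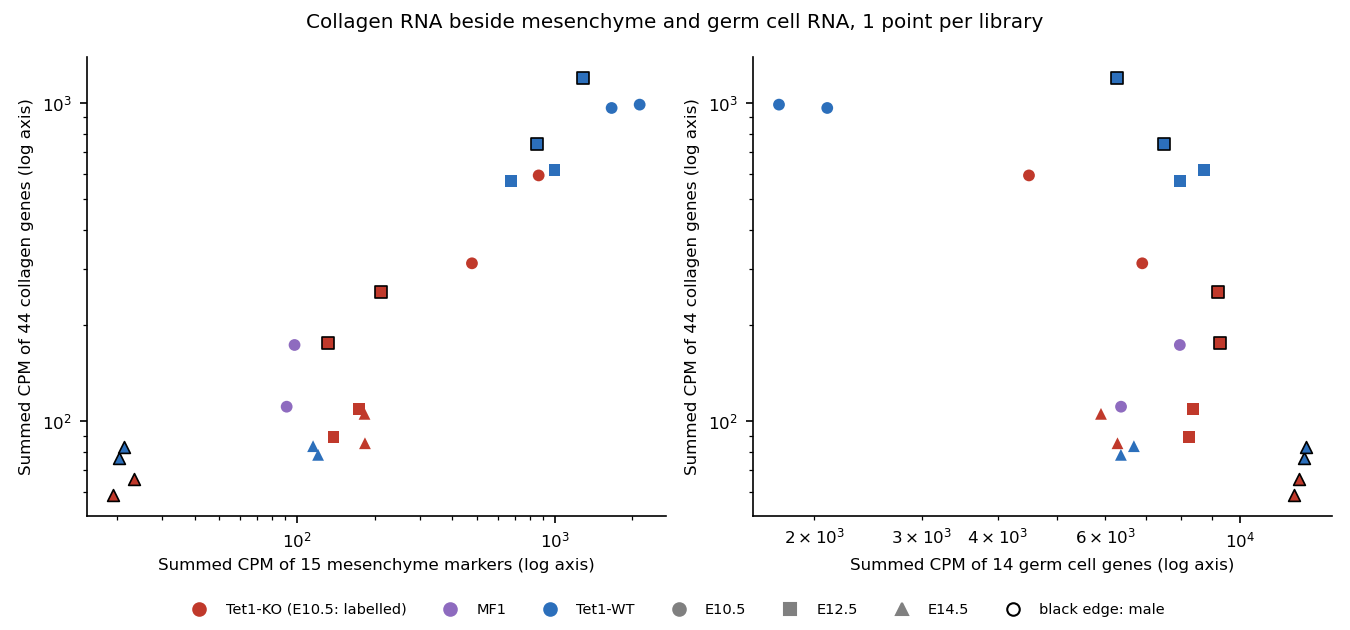
Summed CPM of the 44 collagen genes (both axes log) in each of the 22 libraries against the sum of 15 mesenchyme markers (left) and of 14 germ cell genes (right); colour gives the group, shape the stage and a black edge males. The 2 sums on the left rise together above a collagen level of about 100 CPM, while E14.5 females, whose mesenchyme sum is mostly Gata2, and E14.5 males share a low collagen level.

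Outside the family, genes whose log2(CPM + 1) followed the collagen sum most closely over the 20 libraries, among 10176 genes with a mean of at least 5 CPM, included Nrep (Pearson r = 0.983), Gata6 (0.979), Meis1 (0.977), Ccn1 (0.974), Hmga2 (0.971), Nrp1 (0.97) and Unc5c (0.968). Meis1 stands on the mesenchyme list. The values describe likeness of pattern over libraries that fall into groups.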

How the data were processed

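The deposited values are raw read counts per gene; the authors used Trimmomatic, TopHat2 2.0.2 with Bowtie 0.12.8 and HTSeq 0.5.3p9 on mm9, per the submitters' processing notes, and whether counting used strand is not given in the sources used here. cDNA was amplified for 15 cycles, per the labels' protocols, so counts are not independent molecules.

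Symbols were matched for 32919 and 32897 gene IDs. The 20 libraries of the Tet1 cross were fitted in edgeR 4.0.16 (R 4.3.3) with 10 groups, TMM scaling, filterByExpr (minimum count 10, total 15), a robust quasi-likelihood fit with 10 residual degrees of freedom and Benjamini-Hochberg adjustment, called under 0.05 (biological coefficient of variation 0.46). MF1 and E10.5 Tet1-WT were fitted apart (0.78). Standard errors are the log2 difference divided by the square root of F, and fitted differences use a prior count of 0.125. DESeq2 1.42.0 and limma 3.58.1 (voom) served as alternatives, and the fits were first tested on simulated data. Bounds for genes at 0 use 3 counts per library. Only exon lengths were taken from GENCODE M21 (GRCm38), and start windows from RefSeq; no coordinates were converted. Figures used matplotlib 3.10.9.

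The members and lists were chosen with earlier results of these data known. Named with values are members called in a Tet1-KO comparison, members with a mean of at least 20 CPM in a group, the 3 highest per kilobase in each group and the 4 smallest p in each direction elsewhere. Same-numbered libraries did not deviate together (21 pairs of 7 numbered groups, r from -0.07 to 0.06, 0 over 0.1). Correlation between the libraries of a group ran from 0.919 in MF1 to 0.991.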

Additional observations from a re-analysis of the deposited data

Results flagged for a closer look

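The Tet1-KO effect on Col3a1 differed between stages, as E14.5 minus E12.5, by 3.48 on the log2 scale in females (SE 0.73, adjusted p = 0.0316) and by 4.33 in males (SE 0.74, adjusted p = 0.0143) in edgeR's quasi-likelihood test of the difference itself. Between the sexes at E14.5, as males minus females, the Tet1-KO effect on Col18a1 differed by -2.23 (SE 0.35, adjusted p = 0.0097) and that on Col4a1 by 2.89 (SE 0.68, adjusted p = 0.0482) in the same test. By limma's voom the differences of Col3a1 (adjusted p = 0.0988 in females and 0.0716 in males) and of Col4a1 (0.14) were not called. Each of these edgeR calls, that of Col18a1 included, was lost without at least 1 single library, as given above. Col3a1 was also low at E14.5 in both genotypes. Each group holds 2 libraries, too few to look for a single library apart from its group.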

How the results depend on the processing

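Counts of called members depended on the test. In the order E10.5, E12.5 females, E12.5 males, E14.5 females and E14.5 males, the Tet1-KO comparisons called 2, 4, 2, 4 and 0 members, against 6, 10, 4, 7 and 1 with DESeq2, 1, 13, 14, 1 and 0 with limma's voom, 10, 14, 7, 7 and 3 without a filter on low counts, and 0, 12, 9, 1 and 0 in fits of the 4 libraries alone. Calls over all genes moved too, from 8.81%, 1.29%, 1.06%, 6.65% and 0.102% to 16%, 4.47%, 4.76%, 12.4% and 2.09% with DESeq2, 1.4%, 4.55%, 10.2%, 11.5% and 0.638% with voom, 9.91%, 3.62%, 3.46%, 7.14% and 1.8% without a filter, and 0%, 3.43%, 9.24%, 3.82% and 0% in 4 libraries. Leaving out 1 library gave 1 to 6, 2 to 4, 0 to 2, 1 to 4 and 0 to 0. RLE factors kept every count within 1.5 times. For the stage and sex comparisons and the differences between Tet1-KO effects that follow, shares of all genes under each alternative are not given here. Neither are those of the ranges without 1 library. Such counts therefore do not show whether the members moved more than other genes. E12.5 minus E10.5 called 3 in females, against 8 with DESeq2, 6 with voom, 7 without a filter and 7 in 4 libraries (1 to 1 without a library), and 3 in males, against 8 with voom and 7 in 4 libraries (0 to 0). E14.5 minus E12.5 called 10 in females, against 17 with DESeq2, 17 with voom, 18 without a filter and 16 in 4 libraries (5 to 8), and 11 in males (7 to 10). Males minus females called 0 at E12.5, against 2 without a filter (0 to 0), and 7 at E14.5, against 4 in 4 libraries (3 to 3). Differences between Tet1-KO effects called 1 in females, against 3 with DESeq2, 0 with voom and 5 without a filter (0 to 2), 1 in males, against 4, 0 and 5 (0 to 1), 0 between sexes at E12.5, against 3 without a filter (0 to 0), and 2 at E14.5, against 1 with voom and 6 without a filter (0 to 2). MF1 minus Tet1-WT called 2, against 18 with DESeq2 (15.9% of all genes) and 12 without a filter (5.9%; 4 to 23 without a library).

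The replicate number was also used as a block, on the 12 numbered libraries of the Tet1 cross and in the separate MF1 fit. Calls were then 1 at E10.5, and 1 and 0 for E12.5 minus E10.5 in females and males. They were 8 and 10 for E14.5 minus E12.5, and 6 for MF1. For males minus females at E14.5 Col4a6 (adjusted p = 0.0749), Col6a3 (0.0568) and Col14a1 (0.0556) lost their edgeR calls with the block. Shares of all genes with the block are not given here, so these counts do not show whether the members moved more than other genes. Same-numbered libraries share only a number. No paired analysis was possible because both Tet1-KO columns of each E12.5 and E14.5 group carry the same number, for their comparisons and the differences between Tet1-KO effects.

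The log2 ratio of summed collagen ran from -1.64 to -0.72 at E10.5 without 1 library, -2.74 to -2.44 in E12.5 females, -2.48 to -1.79 in E12.5 males, 0.08 to 0.38 in E14.5 females and -0.44 to -0.28 in E14.5 males. In Tet1-WT it ran from -0.78 to -0.66 and -0.4 to 0.3 for E12.5 minus E10.5 in females and males, -2.93 to -2.82 and -3.91 to -3.22 for E14.5 minus E12.5, 0.32 to 1.02 and -0.08 to 0.03 for males minus females at E12.5 and E14.5, and -3.14 to -2.5 for MF1. Without Col3a1 it was -2.37 in E12.5 female Tet1-KO, -0.45 for E12.5 minus E10.5 in females, -2.64 and -3.23 for E14.5 minus E12.5 in females and males, and -2.24 for MF1; RLE scaling gave -0.81 for E12.5 minus E10.5 in females and library totals -2.98 for E14.5 minus E12.5 in females.

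The sign turned for Col3a1 in E14.5 female Tet1-KO without Tet1-WT replicate 2 (0.4, adjusted p = 0.859; range -1.27 to 0.4), for Col1a1 in E14.5 male Tet1-KO without Tet1-WT replicate 1 (0.17, adjusted p = 1; range -0.64 to 0.17), and the E14.5 male minus female difference of Col4a6 became 0 without female replicate 2 (range of fitted values -8.17 to 0). The causes were not tested. With 2 libraries a group, an uncalled difference does not show that groups were alike.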
